A study of Homo sapiens with 18 samples.

Results

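The lagging probe sets are 391 stretches of 234 genes on a human exon array whose change with a phorbol ester lay at least 1 log2 unit below that of their gene in HL60, THP-1 and U937 cells alike. They were chosen from 175190 kept probe sets in 11982 genes. A kept probe set carried exactly 1 gene symbol, had a mean over the 18 arrays above 5.17 log2 units and lay in a gene with at least 5 such probe sets. For each, the mean of the DMSO arrays was taken from that of the PMA arrays, the mean of the same change over the gene's kept probe sets was taken away, and the remaining difference had to be -1 or lower in each line. Because these PMA and DMSO values chose the members, they are given as a description and carry no test.

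The 3 lines are human myeloid leukaemia cells: HL60 resembles promyelocytes and THP-1 monocytes, and U937 is a monocyte-like line. Cells of each line were cultured with phorbol 12-myristate 13-acetate (PMA) at 30 nM, or with its solvent DMSO alone, for 3 days, with 3 arrays in each of the 6 groups, and total RNA was labelled as biotinylated cDNA. The labels number the arrays but do not say that they came from separate cultures, so the p-values given here reflect the scatter among these arrays alone.

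PMA replaces diacylglycerol as the activator of protein kinase C, which signals through the RAS and MAP kinase pathway to the transcription factor AP-1, built from JUN and FOS family proteins. Leukaemia lines treated in this way stop dividing, attach and take on macrophage features. A probe set reads RNA from one short stretch of a gene, so a change of promoter, a skipped exon or another end of the transcript alters some probe sets of a gene and leaves the rest. AP-1 binds the PMA response element TGAGTCA, whose reverse complement is TGACTCA. The sequences of the array's probes are not used here.

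To show the kind of promoter that carries this element, 6 host genes of lagging probe sets are printed with the element in capitals. They are the 6 with the lowest mean difference among host genes whose RefSeq promoter, the 250 bases before the start site, holds TGAGTCA or TGACTCA on either strand, which are 1 motif read from both sides. Sequences are from RefSeq on GRCh38.p14, written 5′ to 3′ on the strand of the gene.
TM4SF19 (chr3:196338566-196338632, minus strand): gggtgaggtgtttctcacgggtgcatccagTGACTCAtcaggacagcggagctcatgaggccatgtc
MMP7 (chr11:102530778-102530844, minus strand): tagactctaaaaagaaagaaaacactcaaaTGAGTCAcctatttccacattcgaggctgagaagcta
IL1RN (chr2:113117721-113117784, plus strand): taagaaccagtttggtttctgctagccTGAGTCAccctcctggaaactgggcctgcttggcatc
EMP1 (chr12:13196521-13196587, plus strand): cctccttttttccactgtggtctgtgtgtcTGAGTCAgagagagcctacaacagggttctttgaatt
PLAUR (chr19:43670319-43670385, minus strand): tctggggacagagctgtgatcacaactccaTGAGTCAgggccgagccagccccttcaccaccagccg
NIBAN2 (chr9:127579129-127579195, minus strand): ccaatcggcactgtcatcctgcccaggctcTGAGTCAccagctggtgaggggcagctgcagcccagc

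The motif began at position -67 from the start site in MMP7, a secreted matrix protease, and at -214 in TM4SF19, a 4-span membrane protein. It began at -223 in IL1RN, the interleukin 1 receptor antagonist, at -175 in EMP1, at -186 in PLAUR, the receptor of urokinase, and at -134 in NIBAN2. Of the 234 host genes, 177 had a RefSeq promoter by symbol, and 11 of these (6.21%) held the motif, against 1136 of all 27305 promoters (4.16%). Among host genes in which the other probe sets were higher with PMA in every line, 10 of 120 (8.33%) held it, and where the others were lower in every line, 1 of 49 (2.04%). These shares were computed after the members were known and are descriptions, and a match is not a binding site.

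The median difference of the 391 members was -1.89 in HL60, -1.60 in THP-1 and -1.42 in U937, while the median over all kept probe sets lay between -0.02 and 0.01. The members themselves changed little at the median, by 0.31, 0.33 and 0.09 log2 units, while the other kept probe sets of their genes had median changes of 2.30, 2.17 and 1.73. Here and below, values given for the other probe sets of a gene are means over all its kept probe sets except the member in question. Further members of the same gene are included in that mean. A range of such changes spans members and lines. The difference was lowest in HL60 for 199 members, in THP-1 for 106 and in U937 for 86. The 3 differences of a member spanned 0.78 at the median, and 17 members had a span of 2 or more.

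Most members were parts of genes that were otherwise higher with PMA. The other kept probe sets of the gene were higher with PMA in all 3 lines for 293 members in 160 genes, lower in all 3 for 90 members in 66 genes, and of mixed sign for 8. The first kind made up 74.9% of the members and 27.7% of all kept probe sets, the second 23.0% and 37.5%. Among the 293, the member was within 0.5 log2 units of its DMSO level in every line for 77, all its PMA arrays lay above all its DMSO arrays in every line for 72, and all lay below for 7. The share of all kept probe sets with all PMA arrays above in every line was 3.22%.

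**Figure D1:**
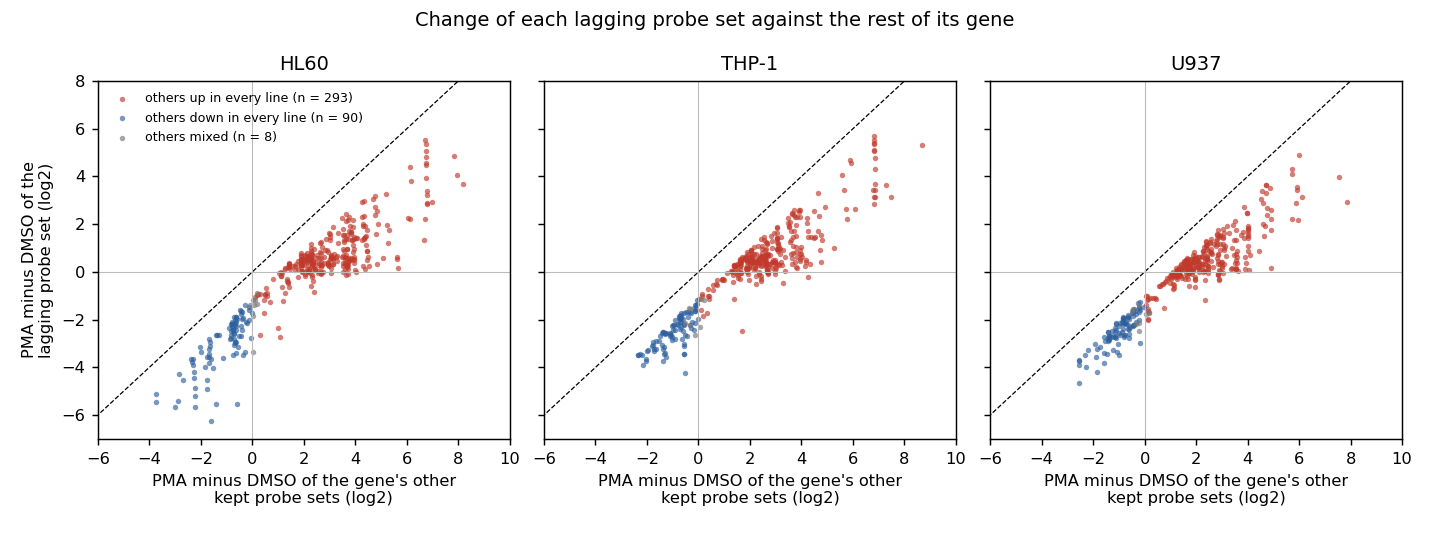
Each point is 1 of the 391 lagging probe sets; the horizontal axis gives the PMA minus DMSO change of the other kept probe sets of its gene and the vertical axis its own change, both in log2 units, and the dashed line marks equal change. Red points (293, rest of the gene higher with PMA in every line) lie mostly near or above 0 on the vertical axis, and blue points (90, rest of the gene lower) lie below 0 and below the dashed line.

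The 2 kinds had different levels. Where the rest of the gene was higher with PMA, the lagging probe set was the brighter part with DMSO, at a median of 7.02 against 5.90 for the others, and was the dimmer part with PMA, at 8.04 against 8.78. It lay above the others in 225 of 293 cases with DMSO and in 94 with PMA. The filter on the mean of 18 arrays bears on these levels. A probe set that changes little passes it only with a DMSO level near or above 5.17. One that is much higher with PMA can pass from a dimmer DMSO level, so no trait of the members is read from this. Where the rest of the gene was lower, both began at a like level with DMSO, 7.81 and 7.84, and with PMA the lagging probe set stood at 5.01 and the others at 6.76. All its PMA arrays lay below all its DMSO arrays in every line for 87 of these 90, against 9.52% of all kept probe sets. By the rule such a member had a change below -1 in every line, so nothing is read from this count. Levels of different probe sets are not corrected for how strongly each binds, so they describe the array signal and not the amount of RNA. In RNA from whole cultures, fewer cells of a kind and less RNA per cell cannot be told apart.

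Measured against the gene in each array, all 3 PMA arrays lay below all 3 DMSO arrays for 375 members in HL60 (10.6% of all kept probe sets did so), 365 in THP-1 (8.36%) and 371 in U937 (6.82%). They did so in all 3 lines for 346 members, against 0.933% of all kept probe sets. The rule used this contrast, so nothing is read from these counts. The members nearest the threshold were CTSH probe set 3634846 (highest of its 3 differences -1.001), SLC17A5 2960995 (-1.001) and SEC14L2 3942352 (-1.002), and just outside it lay RECQL4 3158803 (-0.999), NIBAN2 3225987 (-0.998) and ELL2 2867953 (-0.997).

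Some of the lowest differences belonged to probe sets that changed by under 1 log2 unit inside genes whose other probe sets were several log2 units higher with PMA. Probe set 2372868 of RGS2, which speeds the shut-off of G protein signals, read 7.83, 8.29 and 8.40 in the HL60 DMSO arrays and 8.36, 8.44 and 8.84 in the HL60 PMA arrays. In THP-1 it read 7.36, 7.23 and 7.83 with DMSO and 8.65, 8.36 and 8.39 with PMA, and in U937 8.0, 8.36 and 8.5 against 8.68, 7.91 and 8.61. Its PMA and DMSO arrays overlapped in HL60 and U937, with changes of 0.37 and 0.12, and were separate in THP-1, where it was 0.99 higher with PMA. The gene's other 7 kept probe sets averaged 4.31 to 6.03 in the 9 DMSO arrays and 7.71 to 11.23 in the 9 PMA arrays, with no overlap, and the differences were -2.83, -3.74 and -2.84 in HL60, THP-1 and U937.

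MAML2, a coactivator of Notch signalling, held 4 lagging probe sets of 17 kept. Probe set 3387571 read 11.03, 11.28 and 11.17 with DMSO and 10.58, 11.50 and 11.03 with PMA in HL60, and stayed between 10.76 and 11.49 in the 12 arrays of the other lines. PMA and DMSO arrays overlapped in each line. The other probe sets of MAML2 averaged 4.64 to 5.84 with DMSO and 7.74 to 8.98 with PMA, and the differences were -3.53, -3.39 and -2.64.

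SORT1, the sorting receptor sortilin, is an extreme case of a flat and bright member. Probe set 2427072, the first of 31 kept ones from the 5′ end, read 13.50 to 13.82 in all 18 arrays, near the highest value of the whole table, 14.4. The other probe sets of SORT1 averaged 5.38, 5.40 and 6.29 with DMSO and 7.78, 7.62 and 8.98 with PMA in HL60, 6.79 to 7.12 and 9.84 to 10.01 in THP-1, and 4.89 to 5.39 and 5.89 to 6.93 in U937. They were separate in every line, while the member overlapped in every line. NIBAN2 probe set 3225959 had means of 13.82 with DMSO and 13.90 with PMA, and ST3GAL5 probe set 2562570, of the enzyme that makes the ganglioside GM3, had 13.34 and 13.48. In all, 28 of the 293 members whose gene was otherwise higher had a mean of 10 or more, and 51 had one under 6.

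**Figure D2:**
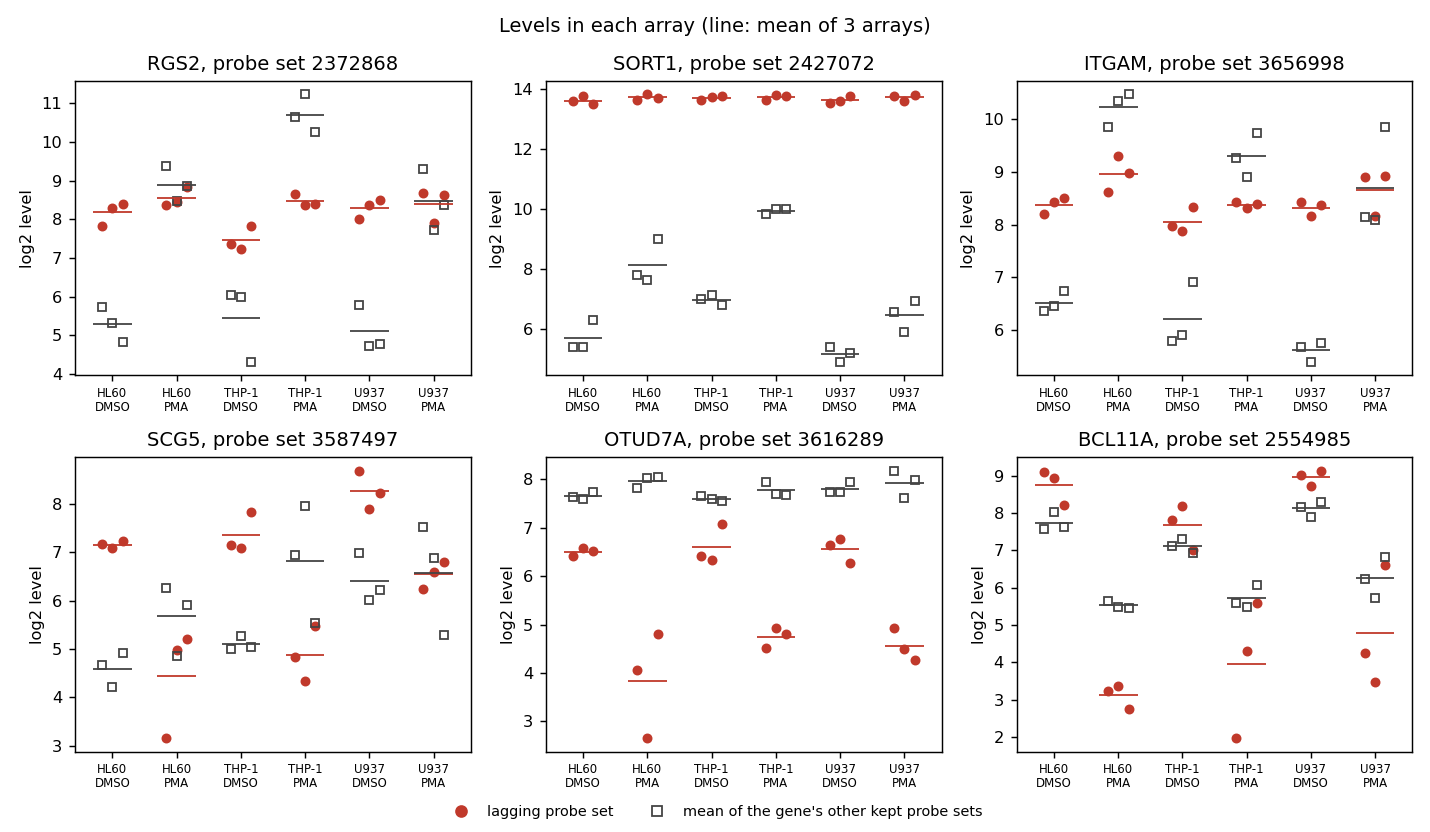
Log2 level of 6 lagging probe sets (red dots) and the mean of the other kept probe sets of the same gene (open squares) in each of 3 arrays per line and treatment; horizontal lines are group means. In RGS2, SORT1 and ITGAM the red dots differ less between treatments than the squares, which are higher with PMA (RGS2 in THP-1 is 0.99 higher in the red dots), in SCG5 and OTUD7A the red dots are lower with PMA while the squares are not, and in BCL11A both are lower and the red dots more so.

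In other genes the member moved upward but by less. SPP1, the secreted phosphoprotein osteopontin, had other probe sets at 6.71, 8.68 and 7.56 log2 units above DMSO in HL60, THP-1 and U937, while its first probe set from the 5′ end, 2735055, was 2.22, 5.31 and 3.96 above. It read 6.65, 6.81 and 6.94 with DMSO and 9.40, 9.26 and 8.40 with PMA in HL60, 6.85 to 7.34 and 12.32 to 12.74 in THP-1, and 7.05 to 7.35 and 10.88 to 11.54 in U937. These arrays did not overlap in any line, and with DMSO the member stood above the rest of SPP1, which averaged 3.95 to 5.21. Probe set 3569763 of ZFP36L1, which binds AU-rich elements and promotes mRNA decay, changed by 0.85, 2.22 and 2.16 against 3.92, 5.78 and 5.95 for the other probe sets. PHLDA1, a pleckstrin homology protein, held 4 members of 11, of which 3462842 changed by 0.87, 0.61 and -0.07 against 4.46, 4.01 and 3.03.

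A2M, a broad protease inhibitor of plasma, held the most members, 11 of its 46 kept probe sets. Their differences ran from -3.86 to -1.08 and their own changes from 0.10 to 5.71, while the mean of the other probe sets changed by 3.99 to 6.88. Probe set 3443400 read 8.18, 8.34 and 8.63 with DMSO and 11.09, 11.28 and 11.30 with PMA in HL60, and 8.38, 8.42 and 8.57 against 10.02, 8.87 and 9.80 in U937. With PMA it was close to the other probe sets of A2M in HL60, which averaged 10.79 to 11.05, and with DMSO it stood far above them, since they averaged 3.93 to 4.19. The matrix protease MMP19 held 7 of 25, with own changes of 0.02 to 2.17 against 2.56 to 3.99 for the mean of the others. RIN2, an activator of RAB5, the amino acid transporter SLC7A8 and ARNT2, a bHLH-PAS factor, held 5 each, with own changes of -0.02 to 2.04, -0.03 to 2.27 and -1.20 to 1.06. The means of the other probe sets of these 3 genes changed by 1.87 to 3.64, 2.41 to 4.31 and 1.88 to 2.36.

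Integrins are the adhesion receptors through which macrophages hold to matrix and other cells. On the integrin and adhesion list, 6 of 23 genes held members (26.1%, against 1.95% of all kept genes). The list was drawn up with results of these data known. These 6 genes had 18 to 40 kept probe sets each, against a median of 12 over all kept genes, so the share is a description. ITGAM, the alpha chain of complement receptor 3, held 4 of 33. Its probe set 3656998 read 8.20, 8.43 and 8.5 with DMSO and 8.62, 9.31 and 8.98 with PMA in HL60, 7.96, 7.87 and 8.33 against 8.43, 8.32 and 8.38 in THP-1, and 8.43, 8.16 and 8.36 against 8.91, 8.16 and 8.92 in U937. It was separate in HL60 and overlapped in the other lines, while the other probe sets averaged 5.39 to 6.90 with DMSO and 8.09 to 10.47 with PMA.

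ITGAX, the partner chain of complement receptor 4, held 4 members of 40 with own changes of 1.41 to 3.53, and ITGA3, a laminin-binding chain, held 7 of 39 with own changes of 0.14 to 2.31. ITGB7, which pairs with the alpha 4 chain in gut homing, held probe set 3456073, which changed by 1.57, 1.48 and 0.88 where the others changed by 4.81, 4.36 and 4.45. ITGB2, the beta chain shared by the leukocyte integrins, held 3934764, with changes of 0.37, -0.11 and -0.31 against 2.34, 1.92 and 1.67. ITGA4 was the only one of these 6 whose other probe sets were lower with PMA in every line: its member 2518298 changed by -5.65, -1.68 and -3.97 and the others by -3.0, -0.50 and -2.27.

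AP-1, EGR and other immediate early genes held members in 7 of 24 (29.2%, against 1.95%), and in all 7 the rest of the gene was higher with PMA in every line. This list too was drawn up with results of these data known, so its share is a description. Probe set 2415100 of JUN, a subunit of AP-1, changed by 2.37, 1.03 and 1.48 in HL60, THP-1 and U937 where the other probe sets changed by 4.75, 3.13 and 3.06. Probe set 3291603 of EGR2, a zinc finger transcription factor, changed by 1.34, 0.61 and 0.71 against 6.67, 3.37 and 4.09. ATF3, a stress-induced bZIP factor, held 3 members of 10 kept, with own changes of 0.05 to 1.55. The other hosts on this list were DUSP1, DUSP4, DUSP5 and DUSP6, phosphatases that switch off MAP kinases. DUSP5 held 2 members, with own changes of 0.17 to 1.37, and the single members of DUSP1, DUSP4 and DUSP6 had differences between -2.53 and -1.08.

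Actin and cytoskeleton genes held members in 4 of 36 (11.1%): gelsolin (GSN), which severs actin filaments, with 4, vimentin (VIM) and the myosin MYO1E with 2 each, and the actin bundler LCP1 with 1. Members of GSN changed by 0.11 to 0.76 and the mean of its other probe sets by 2.09 to 3.57. In VIM, probe set 3236968 changed by 0.03, 0.17 and 0.10 and the others by 1.92, 2.86 and 2.45. Macrophage lipid and scavenging genes held members in 4 of 19 (21.1%): the fatty acid carrier FABP4, the lysosomal membrane protein SCARB2, the oxidized lipoprotein receptor OLR1 and the lipid droplet coat protein PLIN2. FABP4 probe set 3142389 changed by 0.25, 3.65 and 2.21 against 4.30, 7.27 and 5.71, from a DMSO mean of 4.51, below the minimum used for the mean of 18 arrays.

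Cytokines and chemokines held members in 2 of 14 (14.3%), SPP1 and IL1RN, the kinase, phosphatase and small GTPase list in 4 of 36 (11.1%), namely RASGRP3, PTPRE, FGR and RASGRP2, and interferon-stimulated genes in 1 of 13 (7.69%), IFI6. The lysosome list held 1 of 26 (3.85%), the aminopeptidase cathepsin H (CTSH), and genes with known regulated exons 1 of 43 (2.33%), fibronectin (FN1), with 4 members of 50 kept probe sets. DNA replication genes held members in 3 of 32 (9.38%), and primary granule genes in 2 of 10 (20%). Splicing regulators held none of 47 and mitosis genes none of 29. Over all kept genes the share was 1.95%, so none in lists of this size is near that share and nothing is read from it. The mitosis list is not complete, and the spindle pole protein WDR62, which is not on it, was a host. The lists were drawn up with results of these data known, so the shares are descriptions.

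Where the rest of the gene was lower with PMA, the lagging probe set was, by the rule, lower still. BCL11A, a transcriptional repressor of lymphoid and erythroid cells, held 2 neighbouring members among 20 kept probe sets. Probe set 2554985 read 9.12, 8.94 and 8.22 with DMSO and 3.23, 3.37 and 2.73 with PMA in HL60, 7.81, 8.21 and 7.0 against 1.96, 4.30 and 5.59 in THP-1, and 9.02, 8.74 and 9.14 against 4.26, 3.47 and 6.61 in U937. PMA and DMSO arrays were separate in every line. The other BCL11A probe sets changed by -2.22, -1.40 and -1.86, and were separate as well, at 6.92 to 8.31 with DMSO and 5.46 to 6.83 with PMA.

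The 3 replication hosts were of this kind. Probe set 3673705 of CDT1, which licenses replication origins, changed by -5.54, -2.56 and -2.50, and the others by -1.41, -1.09 and -1.16. In E2F1, the S phase transcription factor, probe set 3903155 changed by -1.67, -1.66 and -2.37 against -0.41, -0.35 and -0.66, and in POLE, the catalytic chain of a replicative polymerase, 3479207 changed by -3.16, -2.69 and -2.70 against -2.05, -1.50 and -1.39. WDR62, a spindle pole protein, held 3 members with own changes of -3.47 to -2.15 where the mean of the others changed by -1.11 to -0.74. RASGRP2, a calcium-regulated activator of RAP1, held 4 members of 20 with own changes of -4.88 to -2.52, and CD38, which breaks down NAD, held 2. The granule protease proteinase 3 (PRTN3) held probe set 3815228, with changes of -5.42, -3.27 and -3.41 against -2.90, -1.95 and -1.58. With PMA many of these members lay at or below the 5.17 minimum: the mean was 3.95 for BCL11A 2554985, 4.07 for POLE 3479207 and 3.74 for WDR62 3831096.

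In 7 members the probe set was lower with PMA in all arrays of every line while the mean of the other probe sets was higher in every line. They lay in SCG5 (2 members), OTUD7A, TRPM6, BSG, AEBP1 and CCDC183. Probe set 3616289 of OTUD7A, a deubiquitinase, read 6.42, 6.58 and 6.52 with DMSO and 4.07, 2.65 and 4.81 with PMA in HL60, 6.41, 6.33 and 7.08 against 4.52, 4.93 and 4.81 in THP-1, and 6.65, 6.77 and 6.26 against 4.94, 4.5 and 4.26 in U937. Its groups were separate in every line, and the other 15 kept probe sets averaged 7.56 to 8.18 over all 18 arrays, with changes of 0.31, 0.17 and 0.12.

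SCG5, a chaperone of a prohormone convertase, had only 5 kept probe sets, and its members were the first and second from the 5′ end. Probe set 3587497 read 7.16, 7.09 and 7.24 with DMSO and 3.15, 4.99 and 5.21 with PMA in HL60, 7.15, 7.10 and 7.83 against 4.83, 4.33 and 5.47 in THP-1, and 8.69, 7.90 and 8.24 against 6.24, 6.61 and 6.80 in U937. The 4 others include the second member, which was itself lower with PMA in all arrays of every line. Together these 4 averaged 4.66, 4.21 and 4.91 with DMSO and 6.26, 4.86 and 5.91 with PMA in HL60, and 6.99, 6.02 and 6.22 against 7.54, 6.89 and 5.30 in U937. The member was separate in every line, and the others overlapped in HL60 and U937, where their changes were 1.08 and 0.17. In BSG, which encodes basigin, an inducer of matrix proteases, probe set 3815015 changed by -0.93, -1.61 and -1.40 and the other 14 by 0.47, 0.10 and 0.05.

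In the 74 genes that held 2 or more members, which together held 231, some members lay side by side. Neighbours by probe-set number occurred in 49 genes and took in 126 members. How many neighbours a random placement within each gene would give was not computed. Some of these genes had few kept probe sets, such as SCG5 with 5 and CDKN1A with 6, so nothing is read from these counts. In SPOCD1, a gene of transposon silencing in the germ line, 9 of 25 kept probe sets were members, at places 1 to 8 and 21 from the 5′ end. The first 6 changed by -0.35 to 0.42 in the 3 lines, the seventh and eighth by 0.46 to 1.37, and places 9 and 10 by 3.45 to 4.33. Some later non-members of SPOCD1 changed by less, such as place 18 by 1.51 to 1.83. In PTPRE, a receptor tyrosine phosphatase, the members were places 1 to 6 of 24, with own changes of -0.38 to 0.87. The single probe sets at places 7 to 24 changed by 0.93 to 3.62 in the 3 lines.

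RARG, a retinoic acid receptor, had members at places 1 to 4 and 13 of 14, ST3GAL5 at 1 to 3 of 12, CTSH at 1 to 3 of 16 and CDKN1A, an inhibitor of cyclin-dependent kinases, at 1 and 2 of 6. In CDKN1A the members changed by 0.52 to 1.54 and the mean of the others by 3.56 to 4.44. In NIBAN2 the members were places 15, 16, 19 and 21 of 26, with own changes of -0.09 to 0.96. The probe sets at places 17 and 18 between them changed by 5.92 and 6.86 in HL60. The start of NIBAN2 also changed less than most of its non-members, by 0.50 to 2.19 at places 1 to 3 in the 3 lines. These places were not members, so the absence of members at the start depends on the threshold.

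**Figure D3:**
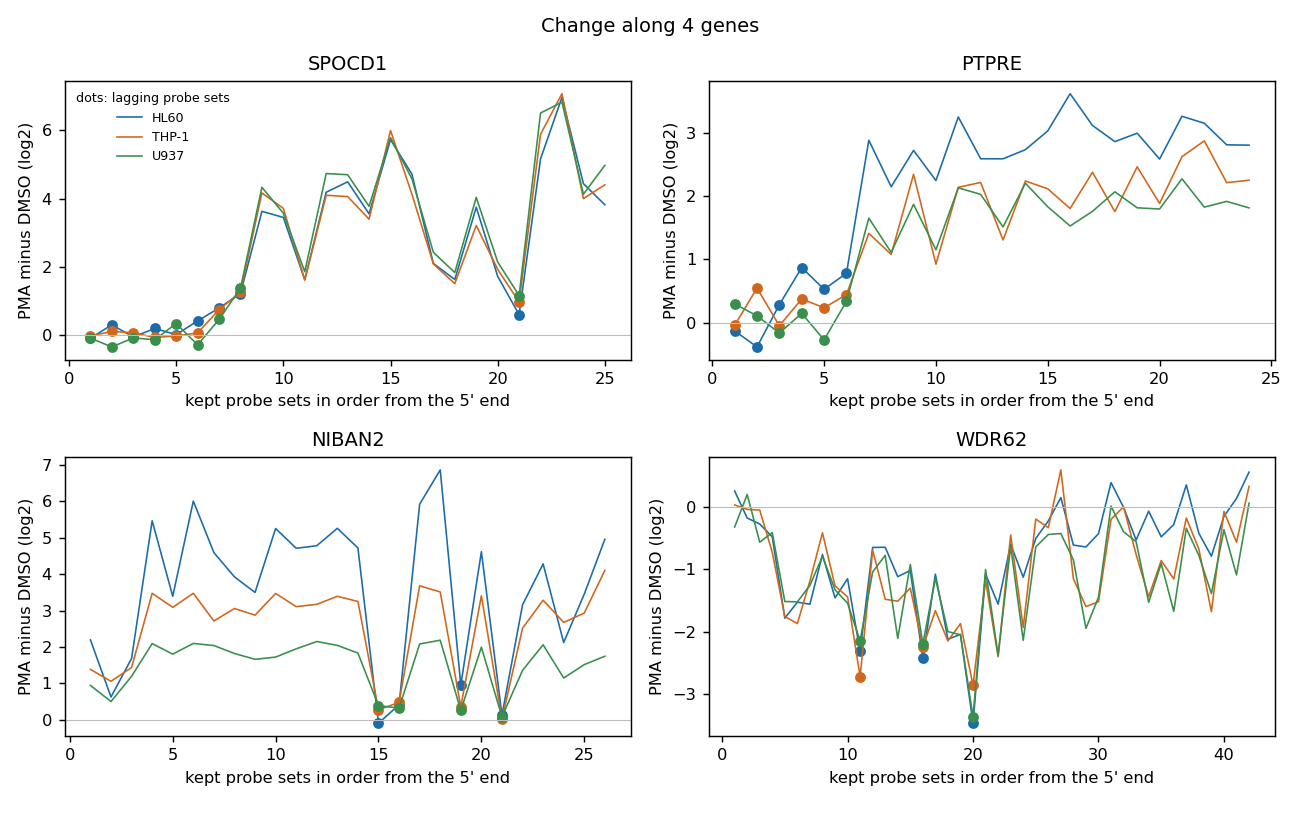
PMA minus DMSO change in log2 units along 4 genes, chosen after their values were seen, with kept probe sets in order from the 5′ end; lines are cell lines and dots mark lagging probe sets. In SPOCD1 and PTPRE the dots fill the start of the gene, mostly near 0, and a further SPOCD1 dot lies at place 21. In NIBAN2 the dots are dips at places 15 and 16, 19 and 21 between probe sets that changed more. In WDR62 they are among the lowest points of a gene that was mostly lower with PMA.

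Place in the gene was taken from the order of probe-set numbers, which follows the order of genes along RefSeq chromosomes for 98.7% of 6762 neighbouring pairs on the plus strand and 98.8% of 6599 on the minus strand. Order inside genes was not tested. The strand was known for 278 members and 144652 kept probe sets. Members whose gene was otherwise higher with PMA lay in the first 20% of their gene in 61.7% of 206 cases, against 17.1% of the other kept probe sets of the same genes and 22.0% of all kept probe sets. Of 120 such genes, 64 had all their members in the first 20%. Members whose gene was otherwise lower lay there in 10.9% of 64 cases.

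A place near the 5′ end was not particular to lagging probe sets. The mirrored set, 793 probe sets in 560 genes with a difference of 1 or more in every line, was mostly in genes that were otherwise lower with PMA (629, or 79.3%). Of these, 83.6% of the 536 with a known strand lay in the first 20%. Where the mirrored probe set's gene was otherwise higher, the share was 8.42% of 95. In both sets, then, the probe sets that moved less than their gene lay mostly at its start and those that moved more did not, and 84 of the 234 host genes also held a mirrored probe set. These shares are descriptions, computed after the members were known.

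**Figure D4:**
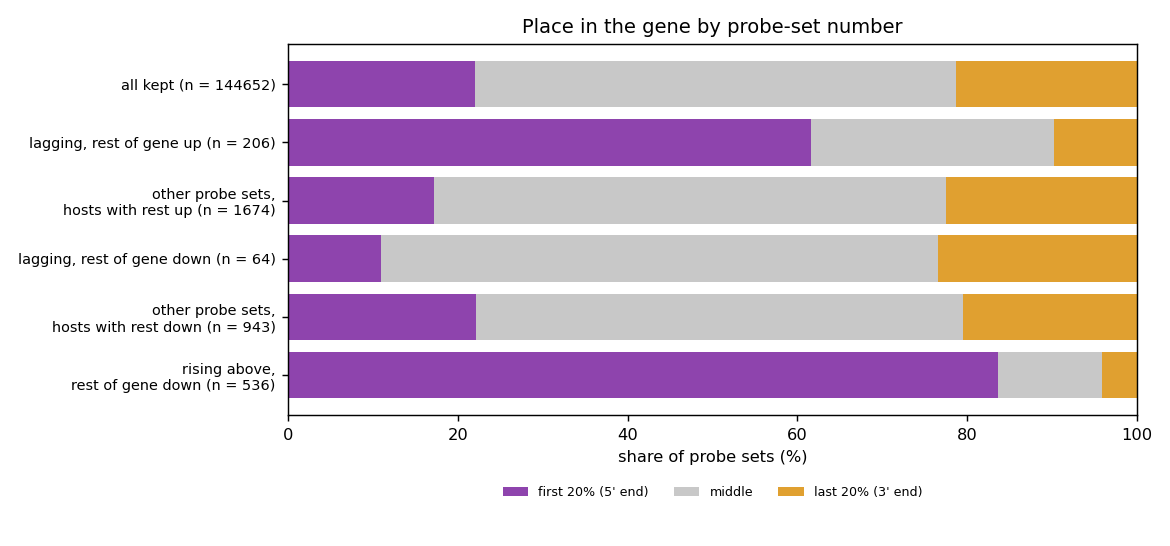
Share of probe sets in the first 20%, the middle and the last 20% of their gene by probe-set number, in percent, with the number of probe sets of known strand in each bar. The first 20% holds 61.7% of lagging probe sets whose gene was otherwise higher with PMA and 83.6% of mirrored probe sets whose gene was otherwise lower, against 22.0% of all kept probe sets.

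For 4 host symbols the kept probe sets fell into separate blocks of numbers (a gap above 500), so 1 symbol may cover more than 1 place. All 5 members named PRG2, the eosinophil major basic protein, lay in the block between PRSSL1 and MED16, and none in the block next to PRG3, so the name is doubtful for them and for their place on the granule list. Probe set 3844796 of that block read 9.88, 10.75 and 10.73 with DMSO and 4.84, 4.62 and 3.12 with PMA in HL60, with a difference of -4.53. The only member named ID2 was a lone probe set next to ID2B. Of the 11 members under these symbols, which also include CHST15 and S100A6, 6 still had differences of -1 or lower in every line when set against their own block. The ID2 member was the only kept probe set of its block, so its difference there was 0 by construction and it could not pass.

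The lines were also compared with each other under 1 treatment, a contrast the rule did not threshold, although it used the same arrays and values. The splicing index, the value of a probe set minus the mean of its gene's kept probe sets in the same array, was tested with limma over all kept probe sets, and adjusted p-values (Benjamini-Hochberg) under 0.05 were called. The rule's difference in a line is the mean index with PMA minus that with DMSO, and it was lowest in HL60 for 199 members. Members were thus picked by the values tested here. Their shares and directions are descriptions, and no excess over all kept probe sets is read from them. With DMSO, 49 members (12.5%) were called between HL60 and THP-1, against 3.89% of all kept probe sets, 48 (12.3%) between HL60 and U937, against 3.71%, and 50 (12.8%) between THP-1 and U937, against 3.28%. With PMA the counts were 78 (19.9%, against 5.08%), 54 (13.8%, against 4.94%) and 56 (14.3%, against 4.17%). The index was higher in HL60 for 36 and lower for 13 against THP-1 with DMSO, and higher for 41 and lower for 7 against U937, while with PMA it was higher for 33 and lower for 45, and higher for 16 and lower for 38. The split against U937 with PMA depended on single arrays and on the fit. Between HL60 and U937 it was 16 higher and 22 lower without the U937 PMA array numbered 2, which stands apart, 13 and 21 without both U937 arrays numbered 2, and 11 and 14 when only the groups compared were fitted. Between THP-1 and U937 it was 21 higher and 35 lower, and 19 and 18 without both U937 arrays numbered 2.

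**Figure D5:**
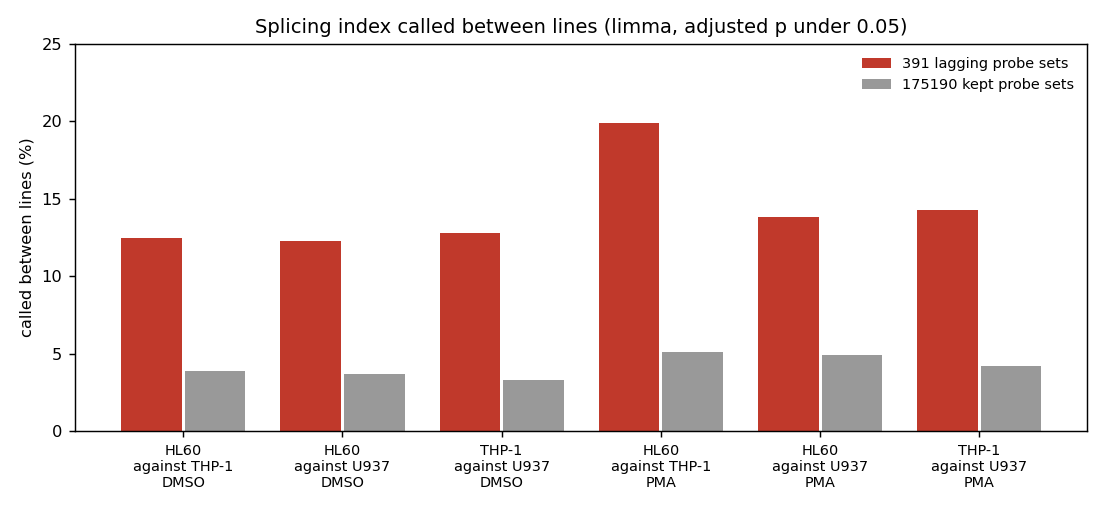
Percent of the 391 lagging probe sets (red) and of all 175190 kept probe sets (grey) whose splicing index was called between 2 lines under 1 treatment by limma at an adjusted p under 0.05. Lagging probe sets were called in 12.3% to 19.9% and all kept probe sets in 3.28% to 5.08%. The rule picked the members by these same index values, so the shares are descriptions.

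In most of the largest differences between lines, the gene's other probe sets differed more than the member. With PMA, PLA2G7, which hydrolyses platelet-activating factor, had a lower index in HL60 than in U937 by -4.46 ± 0.33 (SE; limma adjusted p = 8.49e-07), the same direction in all arrays. Its member 2955847, the first of 8, read 6.89, 7.42 and 6.78 in HL60 and 7.65, 6.90 and 7.04 in U937, which overlap, while the others averaged 10.37, 10.90 and 10.50 against 7.10, 5.55 and 4.33. CYP19A1, the aromatase, likewise had a lower index in HL60 than in U937 (-3.93 ± 0.37, adjusted p = 9.40e-06) with a member at 7.0, 7.17 and 6.45 against 7.90, 7.28 and 7.49, which do not overlap, and others at 9.16 to 9.81 against 4.75 to 6.65. In SORT1 the index of the flat probe set was lower in THP-1 than in U937 (-3.37 ± 0.34, adjusted p = 1.74e-05), a difference carried by the other probe sets. That member read near the highest value of the table, and whether its signal was saturated was not tested, so the difference says nothing of RNA from that stretch.

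With DMSO the cathepsin H member 3634848 read 7.41, 8.31 and 8.66 in HL60 and 7.74, 7.85 and 8.30 in U937, which overlap, while the others averaged 6.14, 5.84 and 5.80 against 9.44, 9.30 and 8.96. Its index was higher in HL60 by 3.26 ± 0.40 (limma adjusted p = 0.000147). CD109, a membrane protein of activated T cells and platelets, had a higher index in HL60 than in THP-1 (3.14 ± 0.41, adjusted p = 0.000211), and PTPRO, a receptor phosphatase, a lower one in THP-1 than in U937 (-2.76 ± 0.42, adjusted p = 0.000916).

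In EPHB4 and ATP8B3 the member differed between the lines by more than the others did. Probe set 3064312 of EPHB4, the receptor of ephrin B2, read 5.13, 5.51 and 5.47 in HL60 and 9.64, 9.56 and 9.97 in U937 with DMSO, while the others averaged 6.46 to 6.67 and 7.79 to 8.07, and the index differed by -2.89 ± 0.42 (limma adjusted p = 0.000641). Probe set 3845475 of ATP8B3, a phospholipid flippase, read 1.48, 2.14 and 1.40 in HL60 and 4.5, 6.61 and 7.25 in U937 with PMA, while the others averaged 6.12 to 6.49 and 6.47 to 7.05. That index differed by -3.81 ± 0.50 (adjusted p = 0.000228). In both, all HL60 arrays lay below all U937 arrays.

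Splicing regulators, which hosted no member, were compared at gene level, where a gene's value is the mean of its probe sets. Of 48 measured, limma called 21 lower and 1 higher with PMA in HL60, 15 lower and 0 higher in THP-1, and 28 lower and 1 higher in U937. With the array number as a block within each line the calls were 31 lower and 1 higher in THP-1 and 33 in all in HL60, and without both U937 arrays numbered 2 there were 16 in all in U937. Over all 16267 genes 10.7%, 13.2% and 16.5% were called lower and 12.3%, 9.37% and 5.50% higher. The list's median change was -0.64, -0.57 and -0.88 log2 units, against 0.13, 0.04 and -0.07 over all genes. Called lower in all 3 lines were 12, among them the polypyrimidine tract binders PTBP1 (-0.95 ± 0.18, -1.09 ± 0.18 and -1.07 ± 0.18 in HL60, THP-1 and U937) and PTBP2 (-1.91 ± 0.24, -1.53 ± 0.24 and -1.33 ± 0.24). MBNL1, a regulator of cassette exons, and SRPK1, the kinase of SR proteins, were among them too. Whether these regulators bear on the lagging probe sets was not tested.

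The deposited values ran from 0.58 to 14.4, and array medians from 6.18 to 6.95. The U937 PMA array numbered 2 had the lowest median and 83228 distinct values, against 214471 or more in each other array. Without both U937 arrays numbered 2 the rule picked 419 probe sets, 361 of them among the 391. Myeloid markers averaged 8.88 to 9.63 in the 6 groups (10 genes) and macrophage markers 5.48 to 9.84 (6 genes). Of the latter, ITGAM, ITGAX, CD36 and MMP9 were higher with PMA in every line. CD14 was lower with PMA in HL60 (6.77 against 7.91) and MSR1 was not higher in U937 (2.85 against 3.01), while both were higher in the other lines. The myeloid marker MPO was 12.60 in HL60 with DMSO, 5.87 in THP-1 and 5.17 in U937. Markers of T and NK cells averaged 4.16 to 4.67 (6 genes), of B cells 5.40 to 6.17 (3), of erythroid cells and megakaryocytes 5.62 to 5.85 (4), and of epithelial cells and fibroblasts 5.30 to 5.55 (6).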

How the data were processed

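RNA of 3 cell lines was measured on 18 exon arrays. Affymetrix Expression Console was used, per the submitters' processing notes. The probe-set values deposited by the authors are on a log2 scale; for background correction, normalization and summary the method was not given in the sources used here. The values were used as deposited. Genes were the symbols of GEO's platform annotation (261273 of 287329 probe sets had 1), updated through RefSeq. The members and gene lists were chosen with earlier results of these data known, and the promoter, position and number-block descriptions were added after the members were seen.

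Tests used limma 3.58.1 in R 4.3.3 (with the data.table package in version 1.17.8) on 6 group means with 12 residual degrees of freedom, two-sided, with Benjamini-Hochberg adjustment over all 175190 kept probe sets, or over 16267 genes with at least 3 probe sets. The scripts were tested on simulated data, in which the splicing index test missed the smaller changes and many of the larger ones, so a probe set that was not called may still differ, and in which the member rule also picked some unshifted probe sets from noise. No depth is given for arrays; their number limits the precision.

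Named were some, not all, of the 74 genes with 2 or more members, and the genes of the 12 members with the lowest highest difference. Also named were members lower while their gene was higher, the 3 on each side of the threshold, up to 4 hosts per list, and the 4 largest called differences between lines per treatment. All integrin and immediate early hosts, the genes drawn along their length and the 6 promoters were chosen after their values were seen. Same-numbered DMSO and PMA arrays of a line deviated together from their group means (correlations 0.426 to 0.725 in HL60, 0.322 to 0.619 in THP-1 and 0.229 to 0.552 in U937). Differently numbered arrays gave -0.554 to 0.332, -0.572 to 0.371 and -0.528 to 0.328, which overlap the former in THP-1 and U937. The numbers may thus pair the arrays within a line, but the labels do not say so, and the main tests did not use a pairing. Alternatives were other reference levels, filters, normalizations, replicate blocks and each array left out.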

Additional observations from a re-analysis of the deposited data

Results flagged for a closer look

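Among the splicing regulators, 4 of 144 differences of the PMA effect between lines were called by limma, in 3 genes, and none of these genes hosted a lagging probe set. The share of all genes called in these contrasts is not given here, so nothing is read from the count. The epithelial splicing regulator ESRP1 changed by 0.33 ± 0.17 log2 units in HL60, -1.40 ± 0.17 in THP-1 and 0.19 ± 0.17 in U937, so that the effect in HL60 exceeded that in THP-1 by 1.73 ± 0.24 (adjusted p = 0.000159) and that in THP-1 lay below U937 by -1.59 ± 0.24 (adjusted p = 0.000496). Its mean level was 5.28 in THP-1 with DMSO and between 3.69 and 4.02 in the groups of the other lines. RBFOX2, a regulator of cassette exons, changed by 1.27 ± 0.24 in HL60 and -0.36 ± 0.24 in U937, a difference of 1.62 ± 0.34 (adjusted p = 0.00481), from DMSO means of 4.54 and 7.04. MBNL3, of the muscleblind family, changed by -0.49 ± 0.24 in HL60 and -1.85 ± 0.24 in THP-1, a difference of 1.36 ± 0.33 (adjusted p = 0.0158).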

How the results depend on the processing

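The member count stayed within 1.5 times of 391 in all settings but 1: 435 with the gene median as reference (338 of the 391 among them), 480 with the gene's other probe sets as reference (391), 524 without a filter on dim probe sets (337), 330 with at least 10 probe sets a gene, 384 after quantile normalization (374), 391 with arrays centred, and 361 to 417 with 1 array left out. With a mean above the 50th percentile it was 246. That filter gave 48, 29 and 32 members called between lines with PMA (HL60 and THP-1, HL60 and U937, THP-1 and U937), and a fit of only the groups compared 35, 25 and 23. Without both U937 arrays numbered 2, HL60 and U937 with PMA gave 34, THP-1 and U937 with PMA 37, and called regulators in U937 numbered 16. The cause of these moves was not tested, beyond the fewer probe sets or arrays used.

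With 1 array left out, called members ranged from 30 to 60, 25 to 54 and 31 to 57 with DMSO (same order) and from 54 to 82, 35 to 55 and 38 to 57 with PMA. Called regulators ranged from 13 to 26 in HL60, 11 to 22 in THP-1 and 16 to 29 in U937. Falls of over 1.5 times came in HL60 and THP-1 with DMSO without HL60 DMSO 2 (30) or THP-1 DMSO 1 (31), and in HL60 and U937 without HL60 DMSO 2 (30) or 3 (31) or U937 DMSO 1 (25) or 2 (30). They came in THP-1 and U937 without U937 DMSO 1 (33) or 2 (31), with PMA in HL60 and U937 without HL60 PMA 3 (35), and for regulators without HL60 DMSO 1 (14), PMA 2 (13) or PMA 3 (14) or U937 DMSO 1 (16). A replicate block gave 60, 62 and 60 members called with DMSO and 92, 63 and 67 with PMA. A block within each line, chosen after seeing the data, gave 33, 32 and 40 called regulators in HL60, THP-1 and U937, against 22, 15 and 29 without it. No value reversed; of 391 values for the named differences between lines, 4 lost their call, and of the members' differences 180 of 9953 moved by more than the spread between replicates.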
